A study of Caenorhabditis elegans with 16 samples.

Results

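The miR-2 seed family of Caenorhabditis elegans was examined as 3 microRNA (miRNA) strands, miR-2-3p (cel-mir-2-3p), miR-43-3p (cel-mir-43-3p) and miR-250-3p (cel-mir-250-3p), which were chosen by name. They are 3 of the 366 miRNA strands counted in any library, and of 354 strands outside the miR-51 family. Small RNAs were sequenced from whole embryos at the comma stage, 50 embryos per library, in 16 libraries of 8 strains with 2 libraries each. The study reduced or replaced the miR-51 family (miR-51 to miR-56), and the comparisons below ask whether the amount of the miR-2 seed family, relative to other miRNAs, differed between those strains and wild type.

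The wild type was N2. All 7 mutant strains lack mir-51 and mir-53 at their own loci through the deletion nDf67, and carry either the mir-52 allele n4100 or a replaced mir-52 hairpin. The null strain MLC1800 (nDf67, n4100, and nDf58, which removes the mir-54 cluster on X) is kept with the extrachromosomal array lucEx1057, which holds a fosmid with the mir-54 cluster and the markers ttx-3::gfp and mir-35p::gfp. Whether the collected embryos lacked the array is not given in the sources used here. In the deletion series, MLC2290 (miR-54C) keeps the whole mir-54 cluster, MLC2394 (miR-54+55) also lacks mir-56 through luc177, and MLC2393 (miR-54) also lacks mir-55 and mir-56 through luc180. In the replacement strains, which carry nDf58 as well, the mir-52 hairpin was exchanged for that of mir-51 (luc143, MLC1997, miR-52to51), for that of mir-57 with its seed changed to the miR-51 seed (luc141, MLC1918, miR52to57seed) or for that of mir-53 (luc140, MLC1917, miR52to53). Each strain has its own 3′ adapter barcode, so barcode and genotype cannot be told apart, and p-values measure the spread between libraries that the study calls independent duplicates.

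An miRNA is cut from a hairpin and guides an Argonaute protein to messenger RNAs that pair with its seed, the bases near its 5′ end. miRNAs with the same seed form a family whose members can share targets, and the strand on the other arm of the hairpin is usually degraded. In Drosophila, the miR-2 family pairs with K box motifs and represses the pro-apoptotic genes reaper, grim and sickle. The grouping of the C. elegans strands was taken as given. No mature sequences were used here, so the identity of the seeds was not checked and no sequence is shown.

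The 3 hairpins lie on 3 chromosomes of the WBcel235 assembly, in the annotation of Ensembl release 115. mir-2 (WBGene00003261) lies on the minus strand of chromosome I from 9372768 to 9372865, within an intron of the protein-coding gene ppfr-1 on the same strand, and miR-2-3p is annotated from 9372783 to 9372805. ppfr-1 encodes a regulatory subunit of a protein phosphatase. mir-71, whose product is known to promote long life in adult worms, lies in an intron of the same gene, 7061 bases away. mir-43 (WBGene00003271) occupies 11889910 to 11890007 of chromosome II on the plus strand (miR-43-3p, 11889970 to 11889992) and overlaps an exon of the noncoding RNA gene ZK930.12 on the opposite strand. It sits between mir-42, which is 4 bases away and belongs to the miR-35 family needed for embryonic development, and mir-44, which is 15 bases away, all on the same strand. mir-45 lies 8870 bases from mir-43 on the other strand. mir-250 (WBGene00003344) lies on the minus strand of chromosome V from 11769917 to 11770015, overlaps no other annotated gene and gives miR-250-3p from 11769937 to 11769956. It is 44 bases from mir-61 on the same strand, whose miRNA represses vav-1 during vulval fate specification.

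The libraries held between 18481 and 844718 unique molecular identifiers (UMIs) on miRNAs, with a median of 103072, and wild type held 229603 and 844718. Because the family under study makes up much of a wild-type library, levels are given as UPM, UMIs per 1000000 UMIs on miRNA strands outside mir-51 to mir-56. A change common to all other miRNAs cannot be seen on this scale. The miR-51 family took 27.8% and 31.8% of UMIs in wild type, 1.54% and 1.09% in the null strain and 5.48% to 15.0% in the deletion series. It took 17.8% to 32.0% in miR-52to51 and miR52to53, and 0.161% and 0.178% in miR52to57seed. The replaced hairpin in miR52to57seed is mir-57 with the miR-51 seed, which is not counted as mir-51 to mir-56. Any UMIs listed for mir-57 stay in the UPM total. The miR-35 family (miR-35-3p to miR-42-3p), which marks embryos, took 42% to 55.4% of UMIs outside the miR-51 family. The summed level of 5 strands that mark larvae (let-7-5p, lin-4-5p, miR-48-5p, miR-84-5p and miR-241-5p) lay between 206 and 5567 UPM and was 807 and 664 in wild type. It stood highest in miR52to53 replicate 1 at 5567, miR-54 replicate 1 at 4846 and miR-52to51 replicate 2 at 3050, and at least 1 of the 5 strands, miR-84-5p, miR-241-5p or lin-4-5p, was at 0 in 5 libraries. For fold changes of the 3 members and of called strands named below, these 3 libraries are left out in turn where a value rests on them. Fold changes of other strands, such as miR-250-5p in miR-54, are given without this check.

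The 3 strands were found in every library and differed widely in level. Together they made up 3.56% and 3.07% of the UMIs outside the miR-51 family in wild type, and between 2.12% (null, replicate 2) and 3.93% (miR-52to51, replicate 1) over all libraries. miR-2-3p carried most of this sum, with 78.1% ± 5.21 (SD, n = 2) of the 3 strands in wild type. miR-43-3p contributed 20.4% ± 4.85 and miR-250-3p 1.48% ± 0.357. By mean level in wild type, miR-2-3p ranked 16, miR-43-3p 39 and miR-250-3p 74 among 366 strands. All 3 are listed with UMIs that no other strand shares, and each library gave 1 to 2 reads per UMI on them. Ligation and amplification differ between small RNAs, so these are levels in the libraries.

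miR-2-3p was the most even of the 3 across strains. Its level was 26528 and 25158 UPM in wild type, from 16171 and 3938 UMIs. The null strain had 23435 and 17851, both under wild type, and miR-54+55 had 22739 and 19988, also both under wild type. The pair of libraries lay around or within the wild-type pair in miR-54C (26766 and 24495), miR-54 (25713 and 26320) and miR52to57seed (23003 and 27291). It also did so in miR52to53, with 27478 and 24782. miR-52to51 had the highest library of all at 31780, and a second at 24527 that lay below both wild-type libraries. Of the 14 mutant libraries, 8 lay below both wild-type libraries, 4 above and 2 between.

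Over the 16 libraries the level of miR-2-3p thus ran from 17851 to 31780, a ratio of 1.78. Ordered by mean, the strains ran from miR-52to51 (28154 ± 5128, SD, n = 2) through miR52to53, miR-54, wild type, miR-54C, miR52to57seed and miR-54+55 to the null strain (20643 ± 3949). Only miR52to57seed and miR-54+55 did not overlap among the 7 pairs of neighbours in this order, and 11 of all 28 pairs of strains did not overlap. The widest ratio between the 2 libraries of a strain was 1.31, in the null strain. The biological coefficient of variation in edgeR was 15.6%, against a median of 25.3% over 162 tested strands.

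miR-43-3p varied more, and the 2 wild-type libraries themselves differed, with 8484 and 5213 UPM from 5172 and 816 UMIs. The null strain was lowest, at 5361 and 3083, so that its replicate 1 lay within the wild-type range. miR52to53 was highest, at 8493 and 10926, both above wild type, the first by only 9 UPM and from 119 UMIs. The other strains stood between: miR-54C had 7145 and 5432, miR-54+55 7357 and 6588, and miR-54 7557 and 8012. miR52to57seed had 5873 and 8255, and miR-52to51 had 7095 and 4327.

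In all, 10 of 14 mutant libraries lay between the wild-type libraries for miR-43-3p, 2 below and 2 above. The ratio of the highest to the lowest library was 3.54, and the largest ratio within a strain was 1.74, again in the null strain. In the order of means, the top strain, miR52to53, was clear of its neighbour miR-54, and the other 6 neighbouring pairs overlapped. Of all 28 pairs of strains, 14 did not overlap. The coefficient of variation was 24.4%.

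miR-250-3p was the rarest and had the fewest molecules behind each value. Wild type had 617 and 377 UPM, from 376 and 59 UMIs. All other libraries held 9 to 53 UMIs of it, so a 95% Wilson interval, which covers counting error only, ran for example from 438 to 1405 UPM around the highest value of 785 (miR52to53 replicate 1, 11 UMIs). The lowest value was 182 UPM in miR-54C replicate 2 (18 UMIs, interval 115 to 288).

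Libraries of mutant strains were mostly lower in miR-250-3p than both wild-type libraries, 10 of 14, with 1 above and 3 between. The share of the 150 strands tested below with such a count was not computed. miR-42-3p, for example, had 11 below, 2 above and 1 between. For miR-250-3p, both libraries were under wild type in miR-54 (286 and 191), miR52to57seed (285 and 291), miR-54+55 (358 and 286) and miR-54C (367 and 182). The null strain had 410 and 286, miR-52to51 had 473 and 393, and miR52to53 had 785 and 357, so each of these had a library at or above the lower wild-type value. No neighbouring strains in the order of means were separate, though 12 of all 28 pairs of strains did not overlap. Such pair counts were made for the 3 members and not for all strands. The coefficient of variation of miR-250-3p was 28.3%. The library with the highest miR-250-3p was also the shallowest and had the highest sum of larval strands. Their part in its value was not tested.

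**Figure D1:**
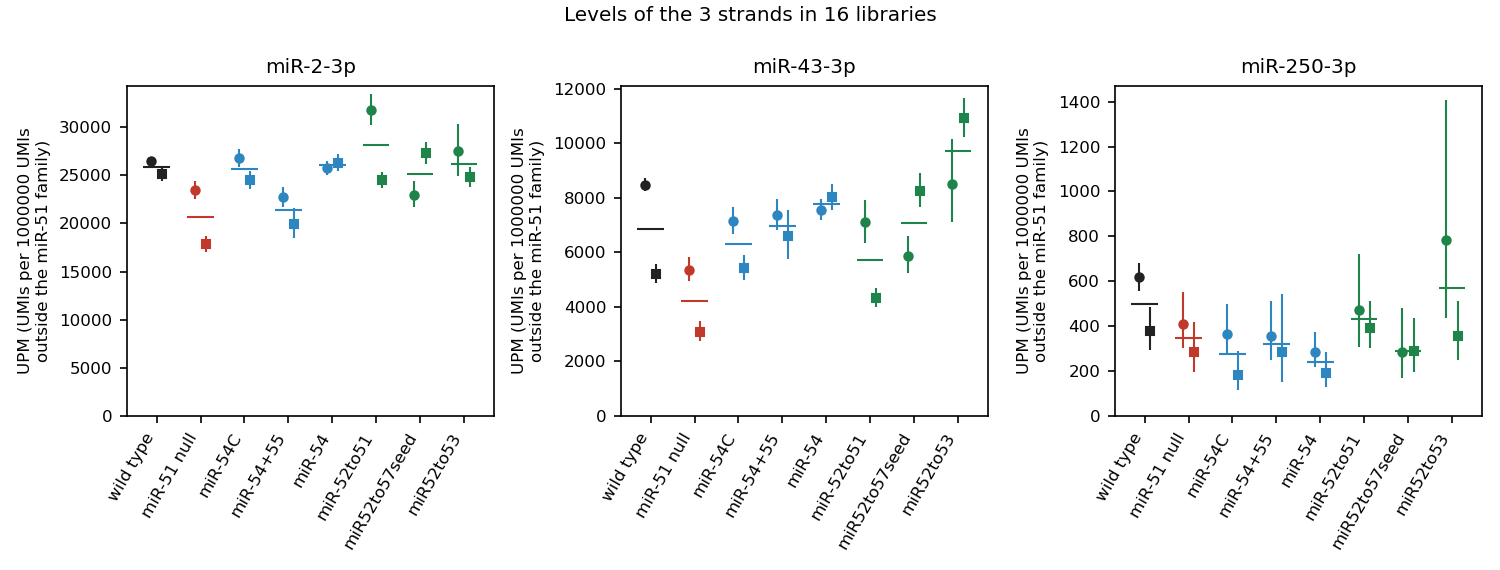
Levels of miR-2-3p, miR-43-3p and miR-250-3p in UPM, UMIs per 1000000 UMIs outside the miR-51 family (y axes, from 0) for the 8 strains (x axes). Circles are replicate 1, squares replicate 2, vertical lines 95% Wilson intervals and horizontal lines strain means. miR-2-3p stayed between 17851 and 31780, miR-43-3p ranged from 3083 in the null strain to 10926 in miR52to53, and intervals are widest for miR-250-3p.

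No member passed the test in any strain. In edgeR's quasi-likelihood fit over all 16 libraries, with Benjamini-Hochberg adjustment over 162 strands and calls at an adjusted p under 0.05, 0 of 3 members were called against wild type in each of the 7 mutant strains. The same comparisons called, of the 150 tested strands not in the miR-51 family, 5.33% for the null strain, 0% for miR-54C, 0.667% for miR-54+55, 4.67% for miR-54, 7.33% for miR-52to51, 0.667% for miR52to57seed and 1.33% for miR52to53. The mean of the 7 mutant strains against wild type called 0 of 3 members and 3.33% of the 150 strands, and the test for any difference among the 8 strains called 0 of 3 and 2.67%. At an unadjusted p under 0.05 a single member came through in a single comparison, miR-250-3p in miR-54, where 20 of the 150 strands did. DESeq2 also called 0 members in each comparison. Fitted with the 2 strains alone, however, miR-250-3p was called in miR52to57seed, at -0.84 (adjusted p = 0.0317), among 23 of 122 strands called.

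In the null strain all 3 fold changes were below zero, except that miR-2-3p stood at 0.17, with a median of 0.5 over the 150 strands, when library size included the miR-51 family. That of miR-43-3p was -0.70 on the log2 scale (SE 0.33, 95% interval -1.40 to 0.00, adjusted p = 0.255), and it ran from -1.15 to -0.30 with each library left out, the latter without wild-type replicate 1. miR-2-3p had -0.32 (SE 0.19, interval -0.74 to 0.09, adjusted p = 0.395) and miR-250-3p had -0.52 (SE 0.42, interval -1.41 to 0.37, adjusted p = 0.538). With each library left out, miR-2-3p ran from -0.53 to -0.14 and miR-250-3p from -0.82 to -0.11. The median of the 150 strands was 0.02. A fall of miR-2-3p by more than 0.74 in the null strain is thus outside the interval, whereas for miR-43-3p and miR-250-3p a fall of more than 2-fold is within it.

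In the deletion series the fold change of miR-250-3p was below zero in every strain and furthest in miR-54, which retains a single family member. There it was -1.06 (SE 0.42, interval -1.95 to -0.17, adjusted p = 0.14), with a median of 0.18 over the 150 strands. It was -1.39 without miR-54 replicate 1, the library rich in larval strands, and -0.65 without wild-type replicate 1. miR-54C gave -0.86 (interval -1.76 to 0.04, adjusted p = 0.482), with -1.45 without its replicate 1 and -0.45 without wild-type replicate 1. miR-54+55 gave -0.61 (interval -1.55 to 0.33, adjusted p = 0.709), with -0.91 without wild-type replicate 2 and -0.20 without wild-type replicate 1. In the same strains miR-2-3p had -0.01 (interval -0.43 to 0.40), -0.27 (-0.69 to 0.14) and 0.01 (-0.40 to 0.42) in miR-54C, miR-54+55 and miR-54. miR-43-3p had -0.12, 0.03 and 0.18. Mean levels in miR-54C, miR-54+55 and miR-54, in order of falling miR-51 family dose, were 25630, 21363 and 26016 UPM for miR-2-3p. They were 6289, 6972 and 7785 for miR-43-3p and 275, 322 and 239 for miR-250-3p. A relation to dose was not tested.

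In the replacement strains, which supply the miR-51 seed from the mir-52 locus, miR-43-3p in miR52to53 had the highest fold change, 0.51 (SE 0.33, interval -0.19 to 1.21, adjusted p = 0.397), with 0.91 without wild-type replicate 1 and 0.20 without wild-type replicate 2. Without replicate 1 of miR52to53, the library rich in larval strands, it was 0.67. In miR-52to51 it was -0.27 and in miR52to57seed 0.04. miR-250-3p had -0.80 in miR52to57seed (SE 0.44, interval -1.73 to 0.14, adjusted p = 0.501), with -0.38 without wild-type replicate 1 and -1.09 without wild-type replicate 2. It had -0.23 in miR-52to51 and -0.00 in miR52to53, where it was -0.49 without replicate 1 and 0.64 without replicate 2. miR-2-3p lay within 0.12 of zero in all 3 replacement strains, with interval bounds between -0.45 and 0.54. Averaged over the 7 mutant strains the log2 fold changes were -0.07 (interval -0.38 to 0.24) for miR-2-3p, -0.05 (-0.57 to 0.47) for miR-43-3p and -0.58 (-1.21 to 0.04) for miR-250-3p, with adjusted p of 0.873, 0.937 and 0.316. Without wild-type replicate 1 the average was 0.35 for miR-43-3p and -0.17 for miR-250-3p, and without wild-type replicate 2 it was -0.35 and -0.88.

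**Figure D2:**
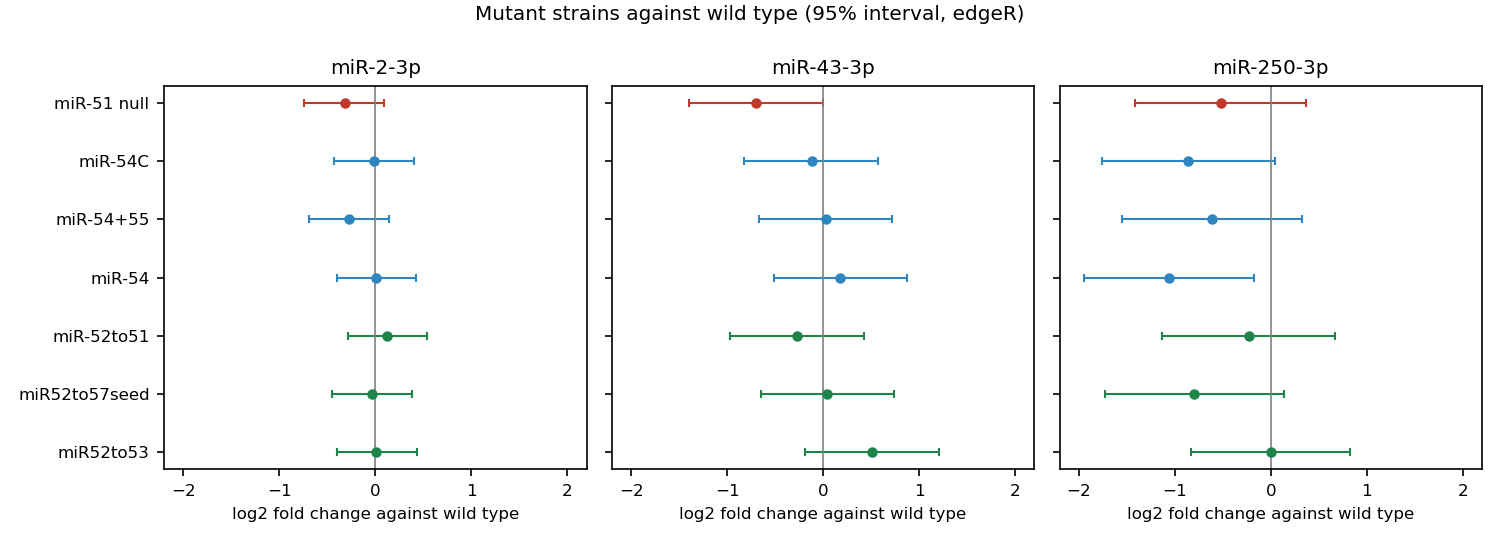
Log2 fold change of each strand against wild type (x axes) in the 7 mutant strains (y axis), as points with 95% intervals from edgeR. The interval of miR-250-3p in miR-54 (-1.95 to -0.17) lies below zero, that of miR-43-3p in the null strain ends at 0.00, and all other intervals span zero.

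The proportions of the members to each other were compared within libraries, where library size does not enter. There were 4.83 and 3.13 UMIs of miR-2-3p for each UMI of miR-43-3p in wild type, and between 2.27 (miR52to53, replicate 2) and 5.79 (null, replicate 2) in the mutants, with a median of 3.57. miR-2-3p exceeded miR-250-3p by 43 and 66.7 times in wild type and by 35 to 137 times in the mutants (median 69.6). For miR-43-3p over miR-250-3p, both wild-type libraries gave 13.8, while the mutants ran from 10.8 to 41.8 with a median of 20.6, and 10 mutant libraries lay above wild type and 4 below.

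Exact permutation tests of 2 kinds were made on 9 such ratios. A 2-sided test set wild type against the other libraries over all 120 choices of 2 libraries, which allows no p under 0.00833. It takes single libraries as exchangeable and does not use their pairing by strain, so its p-values do not measure the spread between strains. A test of differences among the 8 strains counted, over 2027025 divisions into pairs, those with as little spread within pairs as observed. For the member ratios the wild-type test gave p = 0.817, 0.275 and 0.283 in the order above, and adjusted over the 9 ratios 0.842, 0.51 and 0.51 (exact permutation). The test among strains gave p = 0.0673, 0.129 and 0.121, each 0.272 after adjustment (exact permutation). The ratio of miR-2-3p to miR-43-3p was high in both libraries of the null strain (4.37 and 5.79) and of miR-52to51 (4.48 and 5.67). It was low in miR-54+55 (3.09 and 3.03) and miR52to53 (3.24 and 2.27), and wild type had 3.13 and 4.83. This spread among strains did not pass the adjusted test.

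The opposite strands of the 3 hairpins were described in the same way. miR-2-5p kept a narrow range of ratios to miR-2-3p. Its level was 1944 and 1642 UPM in wild type and 1221 to 2230 over all libraries. There were 0.0733 and 0.0653 UMIs of miR-2-5p per UMI of miR-2-3p in wild type and 0.0521 to 0.0904 in the mutants, with 6 libraries above and 4 below both wild-type values. miR-2-5p was called in 0 of the 9 comparisons.

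miR-43-5p was lower in every mutant library than in both wild-type libraries. It had 610 and 722 UPM in wild type, from 372 and 113 UMIs, and 158 to 507 in the 14 mutant libraries, from 5 to 94 UMIs. Of the 150 strands, 3.33% (5 strands) had all 14 mutant libraries below both wild-type libraries, among them also miR-44-5p and miR-45-5p. miR-42-5p, from the neighbouring hairpin mir-42, did not. It had 5 mutant libraries below both wild-type libraries, 3 above and 6 between, and a log2 fold change of -0.13 over the mutants (adjusted p = 0.873 in edgeR). The log2 fold change of miR-43-5p averaged over the mutants was -0.91 (SE 0.25, interval -1.45 to -0.37, adjusted p = 0.0264 in edgeR), and it fell in miR-52to51, by 1.23 (SE 0.38, adjusted p = 0.0428). In the null strain it was -1.18, with an adjusted p of 0.0503. Both calls rest on both wild-type libraries: without wild-type replicate 1 the adjusted p was 0.148 for the average and 0.12 for miR-52to51, and without replicate 2 it was 0.458 and 0.256. The average was called in 17 of 24 alternatives, with log2 fold changes from -1.03 to -0.58. The miR-52to51 call held in 12 of 25, from -2.07 without its replicate 2, the library rich in larval strands, to -0.84 without its replicate 1 (adjusted p = 0.197), and was also lost with the 2 strains alone (0.112) and with reads (0.15).

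Averaged over the mutants the 2 strands of mir-43 stood at -0.91 for miR-43-5p and -0.05 for miR-43-3p. Within libraries the ratio of miR-43-5p to miR-43-3p was 0.0719 and 0.138 in wild type and 0.0222 to 0.116 in the mutants (median 0.0481), with 11 mutant libraries below both wild-type libraries. Its test against the mutants gave p = 0.075, or 0.4 adjusted over 9 ratios (exact permutation).

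For mir-250 the 5p strand stood above wild type in most mutant libraries. The share of the 150 strands that did so was not computed, and miR-71-5p, for example, had 11 above, 2 below and 1 between. miR-250-5p had 123 and 121 UPM in wild type, 11 mutant libraries above both values and 3 below, and a range of 71.5 to 319, from 2 to 52 UMIs in the mutants. Its log2 fold change was 1.12 in the null strain (interval 0.15 to 2.08, adjusted p = 0.159) and 1.0 in miR-54 (interval 0.05 to 1.94, adjusted p = 0.222). There were 0.199 and 0.322 UMIs of miR-250-5p for each UMI of miR-250-3p in wild type, and a median of 0.615 in the mutants. The strand usually taken as the by-product was as abundant as miR-250-3p in 3 libraries: the ratio was 1.12 in null replicate 2, 0.981 in miR-54 replicate 1 and 1.08 in miR-54 replicate 2. Over the 9 ratios this difference did not pass (p = 0.108, adjusted 0.4, exact permutation), and 11 mutant libraries lay above both wild-type libraries with 2 below.

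**Figure D3:**
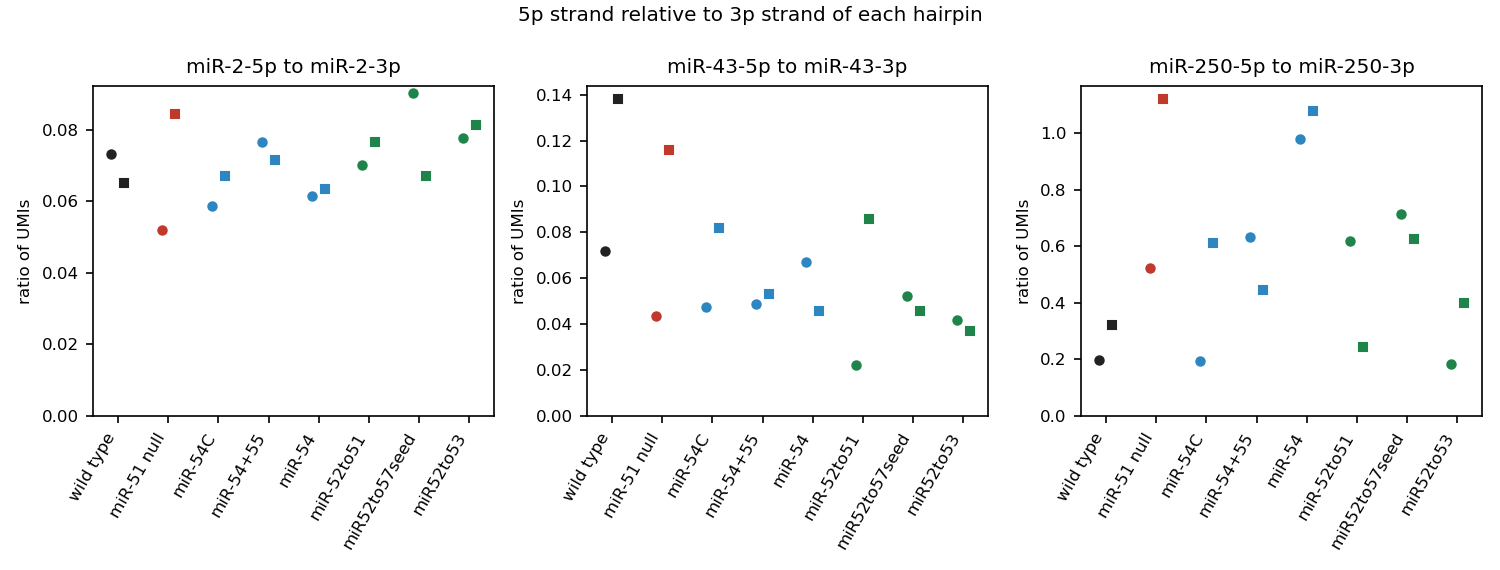
UMIs of the 5p strand per UMI of the 3p strand (y axes, from 0) for the hairpins mir-2, mir-43 and mir-250 in the 8 strains (x axes); circles are replicate 1 and squares replicate 2. The ratio for mir-43 is at or below 0.0858 in 13 of 14 mutant libraries against 0.0719 and 0.138 in wild type, and that for mir-250 reaches 0.981 to 1.12 in 3 libraries against 0.199 and 0.322.

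The neighbouring hairpins were compared as strands that may come from the same primary transcript. miR-42-3p was far more abundant than miR-43-3p and more even, between 30048 and 42671 UPM, with 11 mutant libraries below both wild-type libraries. The ratio of miR-43-3p to miR-42-3p was 0.199 and 0.125 in wild type, lowest in the null strain (0.126 and 0.0724) and highest in miR52to53 (0.274 and 0.364). The test among strains gave p = 0.0409, or 0.272 adjusted over the 9 ratios (exact permutation). In the null strain the log2 fold change of miR-42-3p was 0.02 and that of miR-44-3p 0.09, against -0.70 for miR-43-3p.

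Reads of miR-44-3p fit miR-45-3p as well and were divided between them by the authors, so the level of either is uncertain. With that limit, miR-43-3p had 0.75 and 0.531 UMIs per UMI of miR-44-3p in wild type, and 0.299 to 1.44 in the mutants (p = 0.825 against wild type, 0.842 adjusted, exact permutation). miR-44-5p, whose UMIs are its own, was lower in all 14 mutant libraries (214 to 585 UPM against 607 and 709) and was called in the null strain, at -1.03 (SE 0.32, adjusted p = 0.0477 in edgeR), and averaged over the mutants, at -0.73 (SE 0.22, adjusted p = 0.0433). Without wild-type replicate 1 these adjusted p were 0.129 and 0.217, and without replicate 2 they were 0.326 and 0.581. The null call held in 9 of 25 alternatives and the average in 12 of 24, and the null call was lost with DESeq2 (adjusted p = 0.0598), with reads (0.144), with the 2 strains alone (0.0647) and without either null library (0.178 and 0.0954). miR-45-5p, with 139 and 141 UPM in wild type and 0 to 135 in the mutants, was not called (-0.83 over the mutants, adjusted p = 0.316).

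miR-61-3p, from the hairpin next to mir-250, had between 1612 and 3645 UPM. The ratio of miR-250-3p to miR-61-3p was 0.276 and 0.184 in wild type and 0.0785 to 0.314 in the mutants, with 12 libraries below both wild-type values and 1 above (p = 0.133, adjusted 0.4, exact permutation). In the null strain the log2 fold change of miR-61-3p was 0.67 (adjusted p = 0.218), against -0.52 for miR-250-3p. miR-61-5p was above both wild-type libraries in all 14 mutant libraries, with 182 to 500 UPM against 174 and 172, as were 2% of the 150 strands, and was not called (0.61 over the mutants, adjusted p = 0.245). miR-71-5p, from an intron of the gene that hosts mir-2, ranged from 1142 to 5496 UPM and was called in 0 of the 9 comparisons. Its 3 highest values, 5496, 5277 and 4701 UPM, were in miR52to53 replicate 1, miR-52to51 replicate 2 and miR-54 replicate 1, the 3 libraries with the highest sums of larval strands, and the next was 2885.

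**Figure D4:**
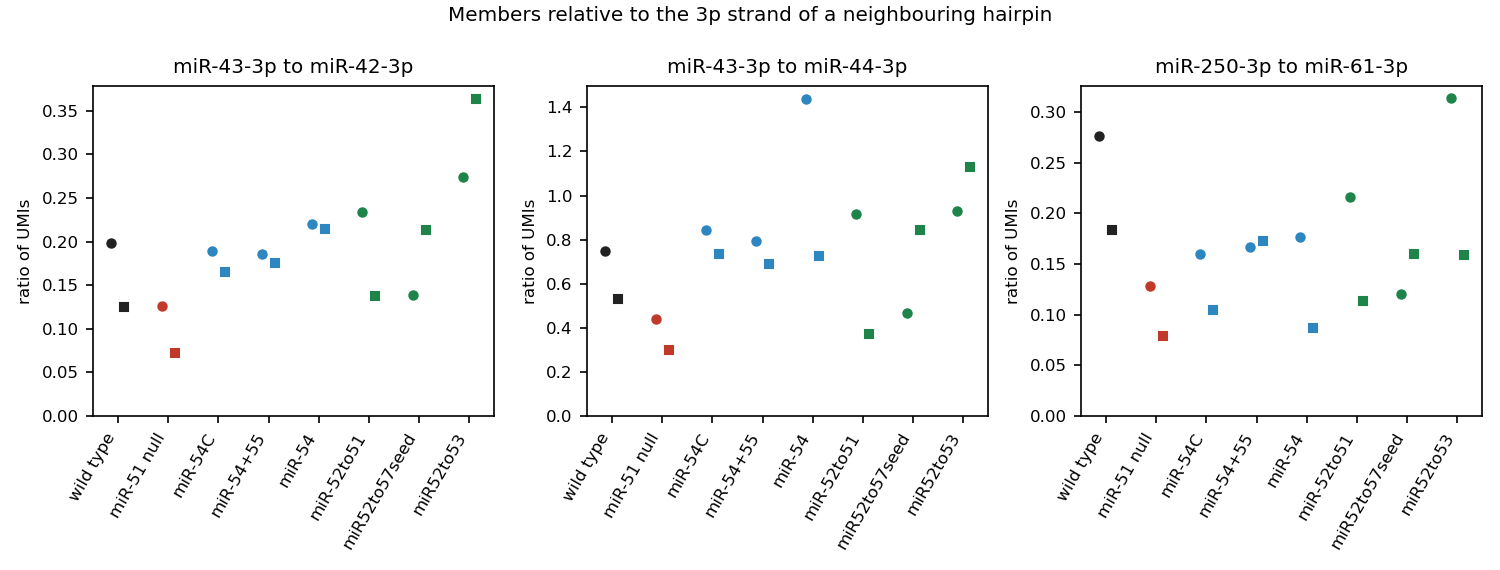
UMIs of miR-43-3p per UMI of miR-42-3p and of miR-44-3p, and of miR-250-3p per UMI of miR-61-3p (y axes, from 0), in the 8 strains (x axes); circles are replicate 1 and squares replicate 2. The first ratio is 0.0724 and 0.126 in the null strain and 0.274 and 0.364 in miR52to53, and the third is under both wild-type values in 12 of 14 mutant libraries.

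Across the 16 libraries the members differed in how alike their levels were. Pearson's r of log2 levels was 0.599 between miR-2-3p and miR-43-3p, 0.346 between miR-2-3p and miR-250-3p and 0.233 between miR-43-3p and miR-250-3p. These are descriptions without a test, since the libraries share strains and a common total. Among strands with at least 10 UMIs in every library, miR-2-3p was most like miR-46-5p (0.781), miR-67-3p (0.708) and miR-231-3p (0.687), while the median over its 53 candidates was 0.154. miR-43-3p was most like miR-236-3p (0.746), miR-2-3p (0.599) and miR-58a-3p (0.553). miR-250-3p was most like miR-58a-3p (0.638), miR-46-3p (0.628) and miR-124-3p (0.588), though it had under 10 UMIs itself in 1 library. The medians over their candidates were -0.0639 for miR-43-3p and 0.141 for miR-250-3p. The correlation of each member's level with log depth was 0.141, -0.0317 and -0.0273.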

How the data were processed

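Small RNA libraries with UMIs were made by the authors from 50 embryos each. Reads were mapped and counted per miRNA strand with their Nextflow pipeline, the submitters' processing notes name the build WBcel235, and the mapper and miRNA annotation are not given in the sources used here. The values the authors deposited are estimated counts of UMIs and of reads, not normalized, with reads that match more than 1 strand split between those strands, and a further deposited count gives UMIs in full. Strands not listed in a library were taken as 0. All files are per library, and no column was left unmapped. The authors normalized to spike-ins, which the count lists used here do not hold, so levels are relative to the other miRNAs. The libraries held 18481 to 844718 UMIs.

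UMIs were rounded and fitted in edgeR 4.0.16 (R 4.3.3), with the quasi-likelihood test, 1 term per strain, library sizes from strands outside the miR-51 family without a further normalization factor, and a minimum of 10 UMIs in 2 or more libraries for each strand. Ratios were compared on the log2 scale by exact permutation in Python 3.11.15 with numpy 2.4.6, pandas 2.3.3 and scipy 1.17.1, and figures were drawn with matplotlib 3.10.9. The tests were also run on simulated data, and the outcome is not given here. For edgeR the simulated counts took their spread from the fit to these libraries, and no change was planted in the most abundant strands. Alternatives were TMM, library size with the miR-51 family, DESeq2 1.42.0, no filter, at least 50 UMIs, reads, UMIs in full, the 2 strains alone, the replicate number as a block and each library left out. Strands named are the members, their opposite strands, strands of hairpins within 10 kb and the 3 strands most alike in level. Members and lists were chosen with earlier results of these data known.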

Additional observations from a re-analysis of the deposited data

How the results depend on the processing

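In 221 of 223 alternatives for the 9 comparisons, 0 members were called. With the replicate block, 1 member was called in the miR-54 comparison, miR-250-3p at -1.05 (adjusted p = 0.049), among 11 of 150 strands called. With the 2 strains alone, 1 was called in miR52to57seed, miR-250-3p at -0.84 (adjusted p = 0.0317), among 23 of 122. The block changed no other member's call. Replicate numbers do not pair the libraries: deviations from strain means correlated between -0.45 and 0.40 over 28 strain pairs, and 8 exceeded 0.1. Of 597 alternative fold changes of members, 34 changed sign, none of them called. Including the miR-51 family in library size moved the median of the other strands to between 0.15 and 0.59, and miR-2-3p to 0.17 (null), 0.27 (miR-54C), 0.13 (miR-54+55), 0.47 (miR52to57seed) and 0.25 (mean), and miR-43-3p to 0.15 (miR-54C) and 0.27 (mean). TMM gave miR-2-3p -0.16 (miR-54), -0.09 (miR-52to51) and -0.23 (miR52to53), DESeq2 -0.12, -0.01 and -0.15 in the same order, and reads gave 0.03 for miR-2-3p (miR-54C) and 0.04 for miR-43-3p (mean). With each library left out, miR-2-3p ran from -0.08 to 0.05 (miR-54C), -0.03 to 0.05 (miR-54), -0.08 to 0.30 (miR-52to51), -0.17 to 0.08 (miR52to57seed) and -0.06 to 0.09 (miR52to53). miR-43-3p ran from -0.43 to 0.27 (miR-54C), -0.28 to 0.42 (miR-54+55), -0.12 to 0.58 (miR-54), -0.66 to 0.12 (miR-52to51), -0.26 to 0.44 (miR52to57seed) and -0.35 to 0.35 (mean), and miR-250-3p from -0.52 to 0.18 (miR-52to51). Where an arm kept 1 library, that library was assumed to vary like the other strains. The log2 ratio of wild type over mutants ran from -0.26 to 0.36 for miR-2-3p to miR-43-3p, -0.11 to 0.05 for miR-2-5p to miR-2-3p, -0.54 to 0.14 for miR-43-3p to miR-42-3p and -0.40 to 0.10 for miR-43-3p to miR-44-3p, and the other 5 ratios kept their sign. No ratio passed after adjustment under any alternative. The number of strands called among all 8 strains was 4, against 17 with DESeq2, 26 without a filter, 14 with the miR-51 family in library size, and 7 both with reads and with the block. Against wild type, miR52to57seed had 1 call and 23 with the 2 strains alone, and miR-54 had 7 and 27 with the family included. Depth limits miR-250-3p most, with 9 to 53 UMIs in mutant libraries.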

Other observations

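The hairpin mir-797 lies on chromosome X from 4757109 to 4757197. Its strand miR-797-5p was included as a possible further strand with the same seed, which was not checked here. It had 0 to 18 UMIs and was found in 15 of 16 libraries. Its median level was 34.2 UPM (UMIs per 1000000 UMIs outside the miR-51 family) and it was called in 0 of the 9 edgeR comparisons (0.36 over the mutants, adjusted p = 0.867). miR-797-3p was listed in 0 libraries.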
